A study of Mus musculus with 12 samples.

Results

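The splenic B cell subset surface markers examined here were Cr2, Fcer2a, Cd9, Cd1d1, Cd36, Cd93, Cd24a, Plac8, Ms4a1 and Ptprc. They were taken by gene symbol from the probe annotation, using for each gene the probe set of highest mean level, and made up 10 of the 18193 genes with a probe set. All 10 passed the filter on low values (log2 of 4 or more on at least 2 arrays), as did 9306 genes in all. Total RNA from 12 samples of sorted mouse spleen B cells was hybridised to Affymetrix arrays, 2 arrays in each of 6 groups of cell type and genotype. Follicular (FO) B cells, which recirculate and populate the follicles, were gated as B220+AA4.1-CD21intCD23+. Marginal zone (MZ) B cells, which stay next to the splenic sinus and respond to blood-borne antigen, were gated as B220+AA4.1-CD21highCD23low. Mice were female C57BL/6 animals aged 10 weeks, and every one of them, controls included, carried mb1-cre(+/-), which drives Cre recombinase in the B lineage from its early stages. They differed in Bcl6, which encodes a transcriptional repressor best known for germinal centres: wild-type (WT) mice were Bcl6(+/+), heterozygous (HET) mice Bcl6(+/flox) and homozygous (HOM) mice Bcl6(flox/flox). Nothing in the labels ties the paired arrays of a group to different animals. P-values rest on the spread between the 2 arrays within a group, pooled over the 6 groups, and part or all of it may be technical.

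Marginal zone and follicular B cells are told apart at the cell surface by 2 receptors. CD21, encoded by Cr2, is the complement receptor that carries C3d-coated antigen, and MZ cells carry more of it. CD23, encoded by Fcer2a, is the low-affinity IgE receptor of follicular cells. MZ cells also carry CD1d, which presents lipid antigen, the tetraspanin CD9 and the scavenger receptor CD36, while AA4.1, encoded by Cd93, marks immature transitional B cells. B220 is an isoform of the phosphatase CD45, encoded by Ptprc, and CD20, encoded by Ms4a1, is present on nearly all mature B cells. Notch2 signalling through the DNA-binding factor RBPJ is needed to form MZ cells.

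The proteins of 4 members (Cr2, Fcer2a, Cd93 and Ptprc) were in the sorting gate. Only CD21 and CD23 differed between the FO and MZ gates, so mRNA of Cr2 and Fcer2a checks that division. Both gates took B220+AA4.1- cells alike, so the MZ minus FO differences of Cd93 and Ptprc do not check it. The other 6 members were not in the gate or, by name, among the targets of the magnetic depletion, which took out T, myeloid, erythroid, activated and plasma cells with antibodies that included CD43, CD5 and CD138. Levels of the members over the arrays are log2 values, and each difference is a log2 difference of group means ± its standard error (SE) from a limma fit over the 12 arrays. A member was called at a Benjamini-Hochberg adjusted p under 0.05 over the 9306 genes. In these bulk samples a larger share of cells with a transcript and more transcript per cell cannot be told apart.

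Start-site sequence is shown for the 3 MZ-high members with a single annotated start in the table and for all 3 starts of Fcer2a, the most FO-high member, because a factor named above or deleted here could bind near a start. Each runs from 250 bases before to 50 bases after the start, 5′ to 3′ on the gene's strand, from RefSeq, build GRCm38.p6. Capitals mark the core TGGGAA bound by RBPJ and the E box CAGGTG bound by E proteins, each searched on both strands, so that the reverse strand shows TTCCCA or CACCTG. A further motif, TTCNNNGAA, is a core shared by BCL6 and STAT factors and had no match in any member's sequence. The sequences lie at chr1:195176670-195176969 (Cr2), chr6:125494711-125495010 (Cd9), chr5:17835847-17836146 (Cd36), and chr8:3694125-3694424, chr8:3690812-3691111 and chr8:3690341-3690640 (Fcer2a starts 1 to 3), all on the minus strand. In Fcer2a start 2 the first matches of TGGGAA and CAGGTG overlap.
Cr2: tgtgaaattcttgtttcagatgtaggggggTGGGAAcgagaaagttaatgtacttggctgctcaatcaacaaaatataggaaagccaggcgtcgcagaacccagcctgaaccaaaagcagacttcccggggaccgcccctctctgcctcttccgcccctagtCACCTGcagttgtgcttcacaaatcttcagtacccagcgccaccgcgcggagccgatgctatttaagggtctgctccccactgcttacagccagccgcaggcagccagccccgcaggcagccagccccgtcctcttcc
Cd9: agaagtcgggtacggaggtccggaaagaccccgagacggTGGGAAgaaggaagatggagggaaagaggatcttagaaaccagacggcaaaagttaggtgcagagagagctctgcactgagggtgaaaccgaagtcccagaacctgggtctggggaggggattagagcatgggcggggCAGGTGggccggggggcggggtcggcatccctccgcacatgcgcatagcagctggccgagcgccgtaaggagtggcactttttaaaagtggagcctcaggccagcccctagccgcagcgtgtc
Cd36: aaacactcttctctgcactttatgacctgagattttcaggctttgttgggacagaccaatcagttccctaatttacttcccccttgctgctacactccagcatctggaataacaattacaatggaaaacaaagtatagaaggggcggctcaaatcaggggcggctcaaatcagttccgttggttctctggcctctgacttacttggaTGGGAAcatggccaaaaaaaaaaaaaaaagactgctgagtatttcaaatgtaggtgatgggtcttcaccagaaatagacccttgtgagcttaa
Fcer2a start 1: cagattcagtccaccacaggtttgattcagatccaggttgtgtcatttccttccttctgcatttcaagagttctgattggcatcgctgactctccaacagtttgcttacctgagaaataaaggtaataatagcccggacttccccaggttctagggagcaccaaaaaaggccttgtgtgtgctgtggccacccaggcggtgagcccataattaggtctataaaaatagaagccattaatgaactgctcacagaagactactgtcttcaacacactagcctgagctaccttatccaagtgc
Fcer2a start 2: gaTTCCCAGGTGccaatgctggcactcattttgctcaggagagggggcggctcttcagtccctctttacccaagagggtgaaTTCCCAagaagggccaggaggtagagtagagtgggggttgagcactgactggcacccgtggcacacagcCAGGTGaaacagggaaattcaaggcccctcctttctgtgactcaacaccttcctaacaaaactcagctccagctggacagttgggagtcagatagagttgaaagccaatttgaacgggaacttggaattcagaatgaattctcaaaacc
Fcer2a start 3: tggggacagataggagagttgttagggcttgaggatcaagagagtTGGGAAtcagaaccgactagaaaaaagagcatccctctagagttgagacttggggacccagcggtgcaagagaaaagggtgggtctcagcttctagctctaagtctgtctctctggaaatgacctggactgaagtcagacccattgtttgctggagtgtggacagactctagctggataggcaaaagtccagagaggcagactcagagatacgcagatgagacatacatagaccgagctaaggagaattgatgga

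Of the 10 members, 6 had start-site entries in the table, 10 entries in all: Cr2, Fcer2a, Cd9, Cd36, Plac8 and Ptprc. TGGGAA occurred in 6 of the 10 entries, from 5 of the 6 genes (not Ptprc), against 25.6% of the 32851 entries in the table. The Cr2 match lay at -220 from the start, the Cd9 match at -211 and the Cd36 match at -43. Fcer2a held TGGGAA at -248 and -168 of start 2 and at -205 of start 3, and none at start 1. CAGGTG occurred in 3 of the 10 entries, against 20.2% of all entries, and TTCNNNGAA in 0, against 8.3%. A match describes these letters in these windows and shows no binding; several entries of a gene share its locus, and the share was not tested.

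MZ and FO cells of wild-type mice differed at most of the subset markers. Of the 10 members, 5 were higher in MZ cells (Cr2, Cd9, Cd1d1, Cd36 and Plac8) and 2 were lower (Fcer2a and Cd93). Of all genes tested, 10.7% were called higher and 11.5% lower in this comparison. Over all 12 arrays, the 6 FO and the 6 MZ arrays did not overlap for 9 of the 10 members, Ms4a1 being the exception. The gap was as small as 0.06 for Ptprc. How many of all genes separate in this way was not counted, so this count alone sets no member apart. The deposited values have a different minimum in the FO and in the MZ arrays (2.21262 and 2.21924), so a separate normalization of the cell types cannot be told apart from cell type.

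**Figure D1:**
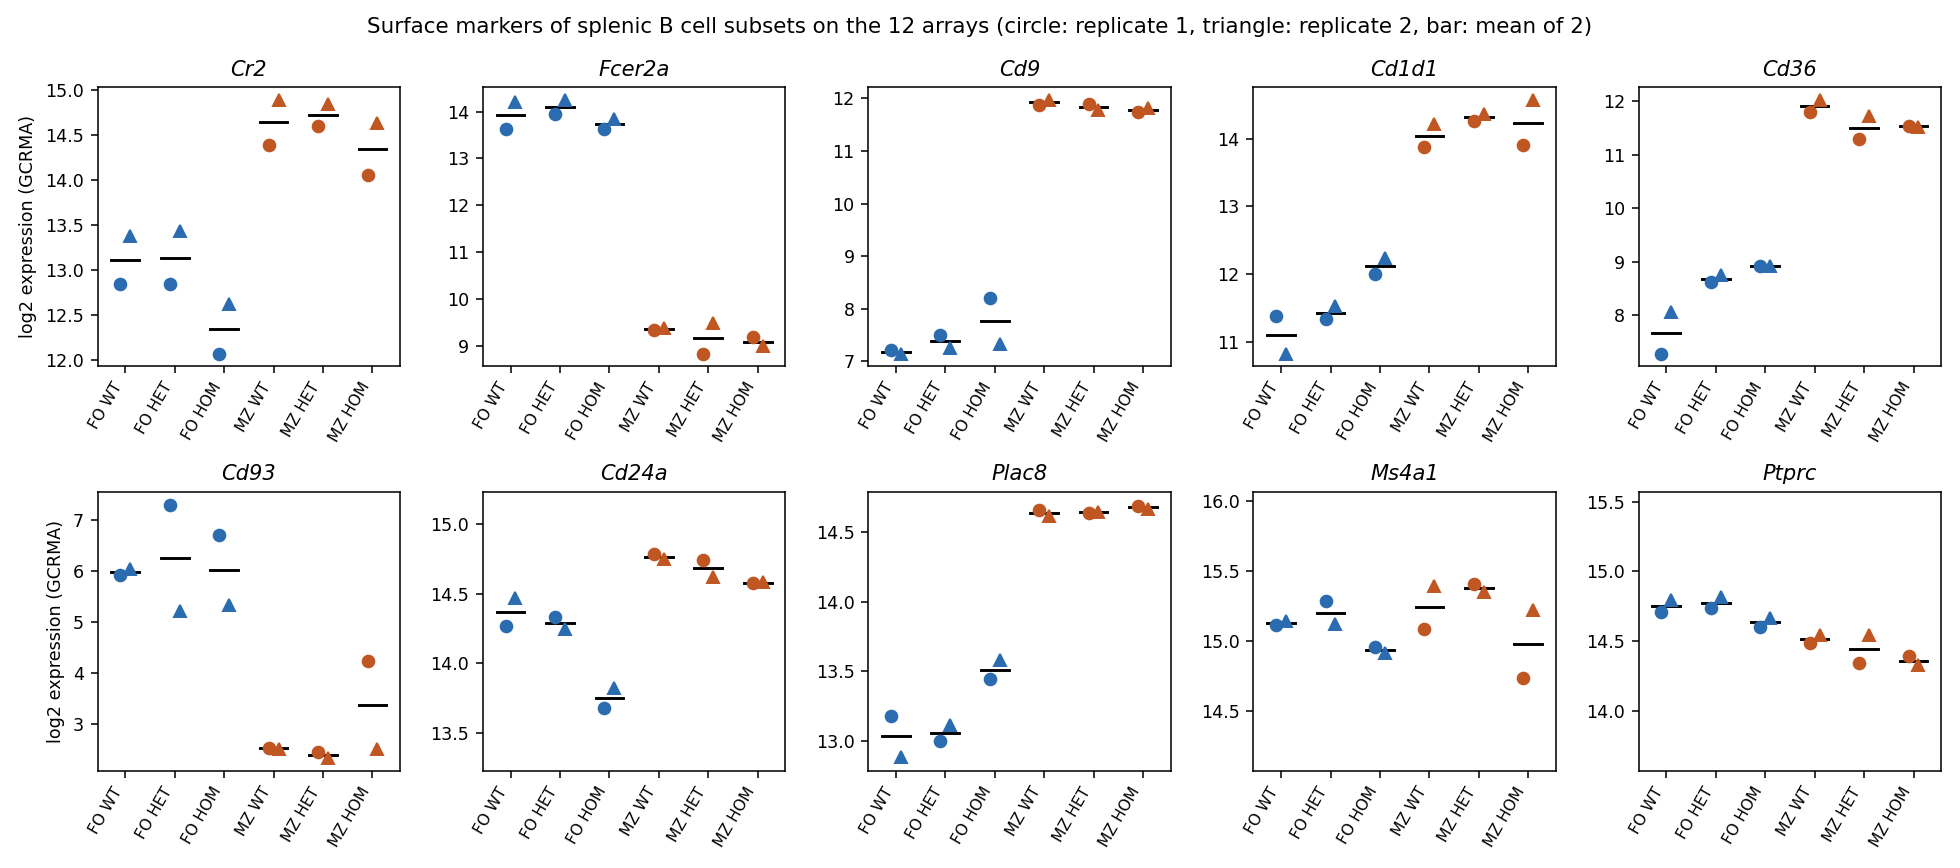
Log2 expression of the 10 markers on the 12 arrays, 1 panel a gene with its own axis, by cell type and Bcl6 genotype (circles replicate 1, triangles replicate 2, bars the mean of 2). FO (blue) and MZ (orange) arrays separate for 9 genes, by only 0.06 for Ptprc, and overlap for Ms4a1. Fcer2a lies between 13.63 and 14.25 on FO arrays and between 8.85 and 9.50 on MZ arrays.

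Cr2, the gate's MZ-high receptor, had log2 levels of 12.84 and 13.37 on the FO wild-type arrays, 12.84 and 13.42 on the FO heterozygous arrays and 12.07 and 12.62 on the FO homozygous arrays. On MZ arrays Cr2 stood at 14.38 and 14.88 in wild-type, 14.59 and 14.84 in heterozygous and 14.05 and 14.63 in homozygous cells. Every MZ array was above every FO array, by at least 0.62. The MZ minus FO difference of Cr2 was 1.53 ± 0.33 in wild-type cells, 2.88-fold (limma adjusted p = 0.0116). It was 1.58 ± 0.33 in heterozygous cells (limma adjusted p = 0.00991) and 2.0 ± 0.33 in homozygous cells (limma adjusted p = 0.00343). The Cr2 level of replicate 2 was above that of replicate 1 in all 6 groups, by 0.25 to 0.59. Without FO wild-type replicate 1, the wild-type difference was 1.26 and no longer called (limma adjusted p = 0.0752). The heterozygous difference was not called without FO heterozygous replicate 1 (1.29, limma adjusted p = 0.0711) or without MZ heterozygous replicate 2 (1.46, limma adjusted p = 0.0586).

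Fcer2a, the gate's FO-high receptor, ran the other way and had the widest gap. Its FO levels were 13.63 and 14.21 in wild-type, 13.94 and 14.25 in heterozygous and 13.63 and 13.84 in homozygous cells. Its MZ levels were 9.36 and 9.40 in wild-type, 8.85 and 9.50 in heterozygous and 9.21 and 9.0 in homozygous cells. The lowest FO array stood 4.14 above the highest MZ array. MZ minus FO differences of Fcer2a were -4.54 ± 0.27 in wild-type, -4.92 ± 0.27 in heterozygous and -4.63 ± 0.27 in homozygous cells (limma adjusted p = 1.05e-05, 8.11e-06 and 1.15e-05), or 23.3-fold lower in wild-type MZ cells. Among the 9306 genes the wild-type difference was the 13th lowest. A second Fcer2a probe set also separated the cell types, at 8.37 to 11.02 on FO and 2.22 to 5.33 on MZ arrays.

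Cd93, whose protein AA4.1 was gated out of both fractions, remained measurable in FO cells and lay near the array minimum in most MZ samples. Its FO levels were 5.93 and 6.04 in wild-type, 7.31 and 5.23 in heterozygous and 6.71 and 5.34 in homozygous cells. Its MZ levels were 2.54 and 2.50 in wild-type, 2.45 and 2.33 in heterozygous and 4.23 and 2.50 in homozygous cells. All MZ arrays were below all FO arrays, with MZ homozygous replicate 1 the highest among them. The MZ minus FO differences of Cd93 were -3.46 ± 0.75 (wild-type), -3.88 ± 0.75 (heterozygous) and -2.66 ± 0.75 (homozygous), with limma adjusted p = 0.0117, 0.00697 and 0.0399. With MZ levels so close to the minimum, these sizes depend on the background correction.

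The heterozygous Cd93 call held with each array left out (limma adjusted p = 0.00475 to 0.0432), whereas the other Cd93 calls did not. The wild-type call was lost without FO wild-type replicate 1 or 2 or MZ wild-type replicate 1 (limma adjusted p = 0.0511, 0.0606 and 0.0504). The homozygous call was lost in 10 of 20 alternatives, among them without FO homozygous replicate 1 (-1.97, limma adjusted p = 0.228) and without MZ homozygous replicate 2 (-1.79, limma adjusted p = 0.234). It was lost too without FO homozygous replicate 2, either FO wild-type array, either MZ wild-type array or either MZ heterozygous array (limma adjusted p = 0.051 to 0.0644). Of the 5 Cd93 probe sets, 3 lay within 0.5 of the minimum on all arrays.

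Myeloid cells also express Cd93, and neutrophil transcripts differed between arrays. The calprotectin gene S100a8 stood at 7.55 on FO heterozygous replicate 1, 9.17 on FO homozygous replicate 1, 8.11 on MZ wild-type replicate 1 and 7.63 on MZ homozygous replicate 1. On the other 8 arrays it was between 2.42 and 2.66. Cd93 was highest within its group on 3 of these 4 arrays by more than 1 log2 unit, while on MZ wild-type replicate 1 it was 2.54. A second Cd93 probe set was the higher of its group on all 4 of these arrays. On that probe set MZ wild-type replicate 1 stood at 3.34 and replicate 2 at 2.30. With the 4 arrays left out, which leaves 1 array in 4 groups and assumes that each varies like the others, the MZ minus FO difference of Cd93 was -3.48 ± 0.17, -2.84 ± 0.17 and -2.84 ± 0.19 in the 3 genotypes (limma adjusted p = 0.00731, 0.00809 and 0.0153). This alternative was chosen after the values were seen. Without these arrays the members called were 7 in wild-type, 6 in heterozygous and 4 in homozygous cells (Fcer2a, Cd9, Cd1d1 and Cd93).

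Ptprc was high and nearly level across the 12 arrays. Its FO levels ran from 14.60 to 14.81 and its MZ levels from 14.33 to 14.54. Although the arrays of the cell types did not overlap, the gap was 0.06, and the MZ minus FO differences of -0.24, -0.33 and -0.28 (each ± 0.14) were not called (limma adjusted p = 0.256, 0.119 and 0.215). A second Ptprc probe set gave differences of -0.98, 0.42 and 0.26, so the direction of Ptprc rests on the probe set.

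Cd9, a tetraspanin of MZ and B1 cells outside the gate, had the largest MZ increase of the members. FO levels of Cd9 were 7.21 and 7.15 in wild-type, 7.51 and 7.26 in heterozygous and 8.21 and 7.33 in homozygous cells. MZ levels were 11.87 and 11.97 in wild-type, 11.89 and 11.78 in heterozygous and 11.73 and 11.82 in homozygous cells. The MZ arrays were tight, within 0.24 of each other, and FO homozygous replicate 1 stood above the other FO arrays. Cd9 differences (MZ minus FO) were 4.74 ± 0.26 in wild-type, 4.45 ± 0.26 in heterozygous and 4.0 ± 0.26 in homozygous cells (limma adjusted p = 7.48e-06, 1.12e-05 and 2.24e-05). The wild-type difference, 26.7-fold, ranked 42nd highest of the 9306 genes.

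Cd36, the scavenger receptor for lipids and oxidised lipoprotein, followed at 18.8-fold in wild-type cells. FO levels of Cd36 were 7.28 and 8.07 in wild-type, 8.61 and 8.75 in heterozygous and 8.92 and 8.93 in homozygous cells. MZ levels were 11.80 and 12.02 in wild-type, 11.28 and 11.73 in heterozygous and 11.54 and 11.51 in homozygous cells. All MZ arrays lay above all FO arrays by at least 2.35. On this probe set the FO groups stood apart from each other in the order homozygous, heterozygous, wild-type. On a second probe set the FO homozygous arrays (8.63 and 8.04) and heterozygous arrays (8.13 and 7.98) overlapped. Cd36 differences were 4.23 ± 0.26, 2.82 ± 0.26 and 2.61 ± 0.26 from wild-type to homozygous (limma adjusted p = 1.27e-05, 1.19e-04 and 2.32e-04). The second probe set separated the cell types at 6.93 to 8.63 against 10.88 to 11.76. The remaining one lay at 2.22 on every FO array and at 5.83 to 7.12 on MZ arrays.

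Macrophages and platelets also carry CD36. Of 8 platelet and megakaryocyte genes, 7 lay within 0.5 of the minimum on every array, and Gp1bb reached 3.08 on FO wild-type replicate 2. The mean over 12 macrophage and monocyte genes ran from 3.53 to 4.31 on FO and from 4.12 to 4.98 on MZ arrays. Within it C1qc, Marco, Cd163 and Itgam were within 0.5 of the minimum on all arrays, while Cd68 and Mpeg1 were higher in wild-type MZ cells by 2.91 ± 0.53 and 3.19 ± 0.57 (limma adjusted p = 0.00491 and 0.00472). Adgre1, which encodes a macrophage surface receptor, was lower in wild-type MZ cells at -2.54 ± 0.58 (limma adjusted p = 0.0142), so that 2 of 7 tested genes of the list were called higher and 1 lower. Their part in the Cd36 difference was not tested.

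Cd1d1, which encodes the molecule that presents lipid antigen to NKT cells, was 7.66-fold higher in wild-type MZ cells. FO levels of Cd1d1 were 11.39 and 10.83 in wild-type, 11.33 and 11.53 in heterozygous and 12.01 and 12.24 in homozygous cells. MZ levels were 13.87 and 14.21 in wild-type, 14.27 and 14.37 in heterozygous and 13.91 and 14.57 in homozygous cells. The MZ groups overlapped, whereas the FO homozygous arrays lay above the other 4 FO arrays. Cd1d1 differences were 2.94 ± 0.27, 2.88 ± 0.27 and 2.12 ± 0.27 (limma adjusted p = 1.32e-04, 1.34e-04 and 9.18e-04). A second Cd1d1 probe set, whose name marks possible sharing with related transcripts, ran from 10.07 to 11.49 on FO and from 13.09 to 13.93 on MZ arrays.

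Plac8, a small cysteine-rich protein of leukocytes, was higher in MZ cells at nearly constant level. FO levels of Plac8 were 13.18 and 12.89 in wild-type, 13.0 and 13.12 in heterozygous and 13.44 and 13.58 in homozygous cells. The 6 MZ arrays all fell between 14.62 and 14.69. Plac8 differences were 1.60 ± 0.15, 1.58 ± 0.15 and 1.16 ± 0.15 (limma adjusted p = 1.42e-04, 1.43e-04 and 9.53e-04).

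Cd24a, the heat-stable antigen that falls as B cells mature, differed least among the members that separated in the direction of MZ cells. FO levels of Cd24a were 14.27 and 14.47 in wild-type, 14.33 and 14.24 in heterozygous and 13.68 and 13.83 in homozygous cells. MZ levels were 14.78 and 14.75 in wild-type, 14.74 and 14.62 in heterozygous and 14.57 and 14.58 in homozygous cells. The lowest MZ array was 0.10 above the highest FO array. Cd24a differences were 0.40 ± 0.14 in wild-type and 0.39 ± 0.14 in heterozygous cells, neither of them called (limma adjusted p = 0.0821 and 0.0812). In homozygous cells the difference was 0.82 ± 0.14 and was called (limma adjusted p = 0.0043).

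Ms4a1, which encodes CD20, did not separate the subsets. Its FO arrays ran from 14.91 to 15.29 and its MZ arrays from 14.73 to 15.40. Ms4a1 differences were 0.11 ± 0.19, 0.17 ± 0.19 and 0.04 ± 0.19 (limma adjusted p = 0.715, 0.548 and 0.915), with a 95% interval of -0.32 to 0.55 in wild-type cells.

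**Figure D2:**
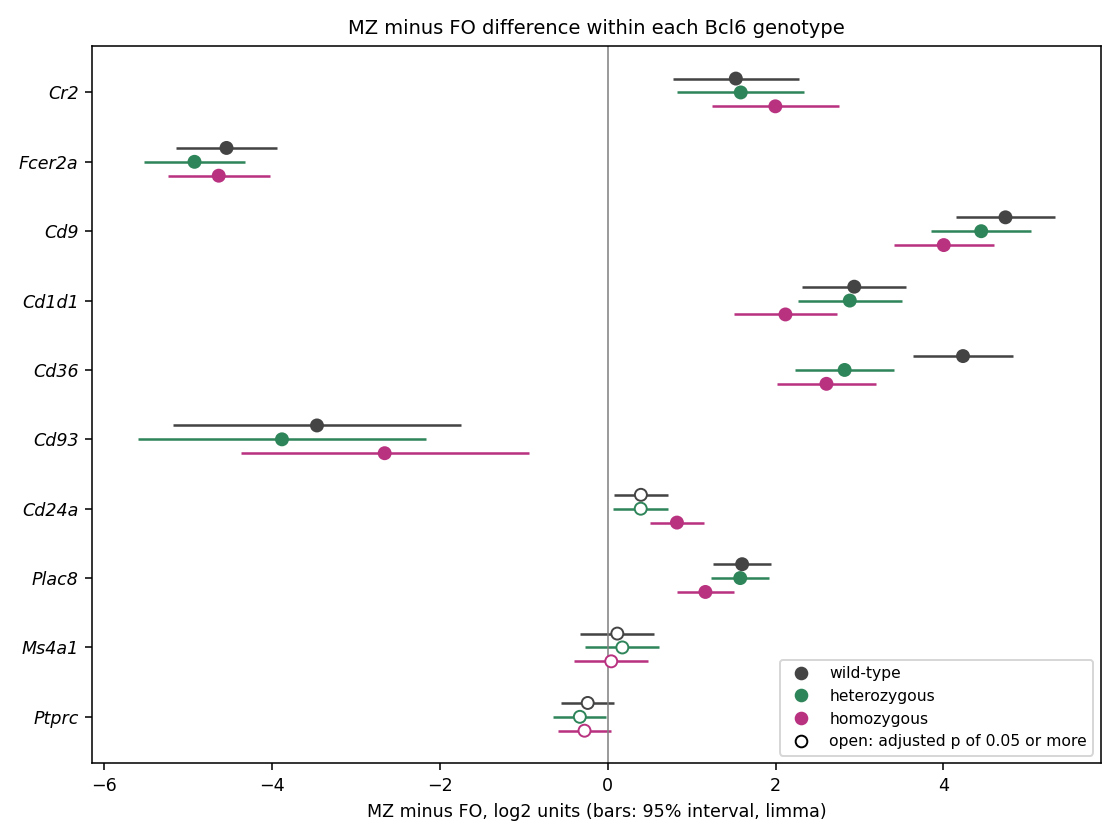
MZ minus FO log2 difference of each marker within wild-type, heterozygous and homozygous cells (points: difference of means of 2 arrays each; bars: 95% interval from limma; filled points have an adjusted p under 0.05). Cd9, Cd36, Cd1d1, Plac8 and Cr2 lie to the right of 0 and Fcer2a and Cd93 to the left in all 3 genotypes, and Cd24a is filled only in homozygous cells, at 0.82.

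The same subset differences were measured in cells with floxed Bcl6. In heterozygous cells 5 members were called higher in MZ cells (9.94% of all genes tested) and 2 lower (13.3% of all genes), the same 7 genes as in wild-type cells. In homozygous cells 6 were called higher (8.28% of all genes) and 2 lower (10.8% of all genes), those 7 and Cd24a. Among them, the proteins of Cr2 and Fcer2a set the MZ and FO gates, so the calls of these 2 check the sort. The median MZ minus FO difference over the 10 members was 0.96 in wild-type, 0.99 in heterozygous and 0.99 in homozygous cells, against -0.12, -0.17 and -0.18 over all genes tested. Whether a member's MZ minus FO difference changed with homozygous deletion was tested directly, as the interaction of cell type and genotype, and 0 of the 10 members were called (0.0107% of all genes). Unadjusted p was under 0.05 for 1 member, Cd36 (3.74% of all genes).

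The interaction of Cd36 was -1.63 ± 0.37 (95% interval -2.47 to -0.79, limma adjusted p = 0.602), from a difference of 4.23 in wild-type to 2.61 in homozygous cells. For Cd1d1 the interaction was -0.82 ± 0.38, for Cd9 -0.73 ± 0.37, for Plac8 -0.44 ± 0.21 and for Cd24a 0.43 ± 0.20, all with limma adjusted p = 0.975. For Cr2 it was 0.47 ± 0.47, for Cd93 0.81 ± 1.06, for Fcer2a -0.09 ± 0.38, for Ms4a1 -0.07 ± 0.27 and for Ptprc -0.04 ± 0.19. Intervals were wide: that of Fcer2a ran from -0.95 to 0.77 and that of Cd93 from -1.62 to 3.23, so equal differences were not shown.

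The deleted gene was measured by 2 probe sets. In FO cells one stood at 4.94 and 5.61 on the wild-type, 4.93 and 4.86 on the heterozygous and 2.36 and 2.48 on the homozygous arrays; in MZ cells it was at the minimum, 2.22, on all arrays. The other stood at 11.95 and 11.65 on the FO wild-type and 12.70 and 12.88 on the FO homozygous arrays, and at 8.29 and 8.81 on the MZ wild-type and 9.95 and 10.37 on the MZ homozygous arrays. The floxed exons are not named in the labels, so the first checks the FO labels only in part and the MZ labels not at all. MZ wild-type replicate 1 stood apart in RNA quality: its 3′ minus 5′ Gapdh control difference was 6.90, against -0.20 to 0.63 on the other arrays. For beta-actin it was 2.19, against 0.64 to 1.07. This array is 1 of the 2 MZ wild-type arrays. It therefore enters every wild-type MZ minus FO difference, both comparisons of genotypes in MZ cells and the interaction.

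Among the comparisons of genotypes, that of homozygous with wild-type FO cells had the most members at an unadjusted p under 0.05, and none passed the adjusted threshold. With 0.43% of all genes called, 0 of the 10 members were called, and the smallest adjusted p was 0.126. At an unadjusted limma p under 0.05 stood 5 of the 10 members, against 6.97% of all genes. The arrays of homozygous and wild-type FO cells did not overlap for 8 members (Cr2, Cd9, Cd1d1, Cd36, Cd24a, Plac8, Ms4a1 and Ptprc), against 33.9% of all genes.

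Differences of homozygous from wild-type FO cells, in log2 units, were 1.25 ± 0.26 for Cd36 (limma adjusted p = 0.126) and 1.02 ± 0.27 for Cd1d1 (limma adjusted p = 0.258). Plac8 differed by 0.48 ± 0.15 (limma adjusted p = 0.390) and Cd9 by 0.59 ± 0.26 (limma adjusted p = 0.712). The Cd9 value was 0.15 without FO homozygous replicate 1 and 1.03 without FO homozygous replicate 2. These 4 are MZ-high markers, and on the FO homozygous arrays each stood above wild-type. The other MZ-high marker, Cr2, stood below wild-type by a difference of -0.77 ± 0.33 (limma adjusted p = 0.705). For the 14 measured MZ genes outside the members, the median difference in this comparison was 0.076, and 10 of the 14 differences were above 0. Cd24a differed by -0.62 ± 0.14 (limma adjusted p = 0.173). Fcer2a (-0.18 ± 0.27), Cd93 (0.04 ± 0.75), Ms4a1 (-0.19 ± 0.19) and Ptprc (-0.12 ± 0.14) had intervals that spanned 0.

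Other probe sets of a gene, measured on the same arrays, agreed for some members and not for others. For Cd24a the FO homozygous minus wild-type differences of its 3 probe sets were -0.62, -0.68 and -0.90. For Cd1d1 they were 1.02 and 1.17, and for Cd36 1.25 and 1.05, with the other one at the minimum in FO cells. For Ptprc they were -0.12 and -0.95, for Fcer2a -0.18 and 0.03 and for Ms4a1 -0.19 and -0.07. The measurable Cd93 probe sets gave 0.04 and -0.11.

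B1 cell markers were examined in the same samples, and 0 of the 5 tested were called between homozygous and wild-type FO cells. The mean over the 8 measured B1 markers was 4.01 to 4.19 on FO wild-type, 4.21 to 4.75 on FO heterozygous and 4.67 to 5.09 on FO homozygous arrays, and 4.45 to 6.01 on MZ arrays. The homozygous minus wild-type differences of Ahr and Plscr1 in FO cells were 3.32 ± 0.80 and 2.26 ± 0.68 (limma adjusted p = 0.203 and 0.353). Those of Spn, Ctla4 and Cd5 were -0.48 ± 0.39, 0.22 ± 1.34 and 0 ± 0.30, and the median of the 5 was 0.22. Cd5, which defines B-1a cells, lay within 0.5 of the minimum on all 6 FO arrays at 2.30. On MZ arrays Cd5 ran from 3.43 to 4.54. Its MZ minus FO differences were 1.79, 1.22 and 1.51, each ± 0.30, from wild-type to homozygous (limma adjusted p = 0.00342, 0.021 and 0.00903). Of the 5 tested B1 markers, 3 were called higher and 1 lower in wild-type MZ cells (10.7% and 11.5% of all genes). In heterozygous MZ cells 1 was called higher and 1 lower (9.94% and 13.3% of all genes), as in homozygous cells (8.28% and 10.8%). The macrophage mean was 3.53 to 4.31 on FO wild-type and 3.66 to 4.15 on FO homozygous arrays. A part of B1 cells in the FO or MZ values of Cd9, Cd36 or Cd1d1 was not tested.

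Heterozygous deletion in FO cells called 0 genes, 0% of those tested, and so 0 members. At an unadjusted limma p under 0.05 stood 184 genes (1.98%) and 1 member, Cd36, at 1.01 ± 0.26 (limma adjusted p = 1). Its FO heterozygous arrays, at 8.61 and 8.75, lay between the wild-type pair (7.28 and 8.07) and the homozygous pair (8.92 and 8.93). On a second Cd36 probe set the heterozygous arrays, at 8.13 and 7.98, overlapped the homozygous pair (8.63 and 8.04). The heterozygous and the homozygous comparison share the wild-type arrays. The other members differed by -0.08 to 0.33. Arrays did not overlap for 2 members, Cd9 and Cd36, against 22.8% of all genes.

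Within MZ cells homozygous deletion gave 0 called members (0.0645% of all genes) and 0 at an unadjusted limma p under 0.05 (6.08% of all genes). The differences ran from -0.38 ± 0.26 for Cd36 to 0.85 ± 0.75 for Cd93, the latter set by MZ homozygous replicate 1. Arrays did not overlap for 6 members, against 31.2% of all genes. Cr2 differed by -0.30 ± 0.33 and Fcer2a by -0.28 ± 0.27. Heterozygous deletion in MZ cells likewise gave 0 called members (0.0107% of all genes) and 0 at an unadjusted p under 0.05 (3.08% of all genes). Its differences ran from -0.40 ± 0.26 for Cd36 to 0.27 ± 0.27 for Cd1d1, and arrays did not overlap for 4 members, against 28.2% of all genes.

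**Figure D3:**
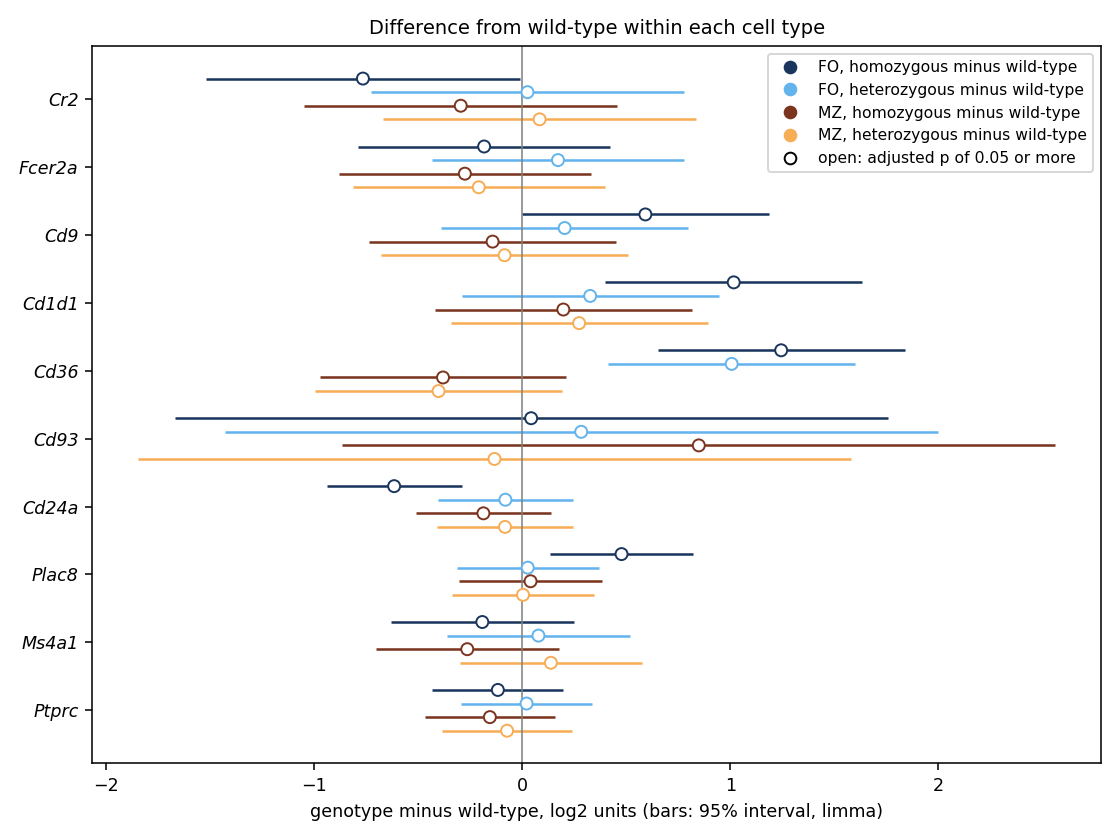
Log2 difference of homozygous and heterozygous cells from wild-type, within FO (blue shades) and MZ cells (brown shades), for each marker (points: difference of means of 2 arrays each; bars: 95% interval from limma; open points have an adjusted p of 0.05 or more). All points are open, and the intervals that do not reach 0 are those of Cd36 (1.25), Cd1d1 (1.02), Plac8 (0.48), Cd24a (-0.62) and Cr2 (-0.77) in homozygous FO cells and of Cd36 (1.01) in heterozygous FO cells.

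Order over the 6 groups differed between members. For Cr2 it was MZ heterozygous, wild-type and homozygous, then FO heterozygous, wild-type and homozygous, with overlap between neighbours within each cell type except that FO homozygous lay below FO wild-type. Cd9 ran from MZ wild-type through MZ heterozygous and homozygous to FO homozygous, heterozygous and wild-type, with FO wild-type apart from its neighbour. The same FO order, homozygous above heterozygous above wild-type, held for Cd1d1, Cd36 and Plac8, and neighbours there overlapped between heterozygous and wild-type for Cd1d1 and Plac8. Cd24a ran from MZ wild-type through MZ heterozygous and MZ homozygous to FO wild-type, heterozygous and homozygous.

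Other genes known from the same subsets were counted as lists. The lists were chosen with earlier results of these data known, and genes given with differences had the smallest limma p in wild-type cells. Neither the counts nor these p-values are therefore an independent check. Of all genes tested, 10.7%, 9.94% and 8.28% were called higher in wild-type, heterozygous and homozygous MZ cells. Called lower were 11.5%, 13.3% and 10.8%. Of 14 measured MZ genes outside the members, 12 were called higher in wild-type MZ cells, 11 in heterozygous and 11 in homozygous, and 0 lower. Their median MZ minus FO differences were 2.18, 2.09 and 1.82. Rgs10, a regulator of G protein signalling, differed by 6.13 ± 0.31, the Notch-induced ubiquitin ligase subunit Asb2 by 6.26 ± 0.77, the membrane repair protein Myof by 5.77 ± 0.38 and the MAP kinase phosphatase Dusp16 by 2.99 ± 0.17 in wild-type cells (limma adjusted p = 5.31e-06, 6.28e-04, 1.81e-05 and 1.05e-05).

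Of 10 measured follicular genes outside the members, 5, 7 and 6 were called lower in MZ cells across wild-type, heterozygous and homozygous samples, and 0 higher. The integrin chain Itgb7 differed by -3.73 ± 0.39, the complement regulator Cd55 by -2.50 ± 0.19, Zfp318, needed for IgD expression, by -2.17 ± 0.18 and the chromatin organiser Satb1 by -1.64 ± 0.20 in wild-type cells (limma adjusted p = 2.47e-04, 3.98e-05, 7.41e-05 and 6.05e-04). Transitional and immature B cell genes gave 3 of 6 tested lower in MZ cells in each genotype, namely Vpreb3, Sox4 and Cecr2. In wild-type cells Sox4 differed by -3.24 ± 0.42, Vpreb3, a pre-B cell receptor chaperone, by -2.22 ± 0.32 and Cecr2 by -2.12 ± 0.26 (limma adjusted p = 8.33e-04, 0.00158 and 5.83e-04). Rag1, Rag2, Dntt and Vpreb1, which act at the pro-B and pre-B stages, were within 0.5 of the minimum on all arrays.

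Partners of CD21 and CD9 at the membrane were counted in the same way. In wild-type cells their median MZ minus FO difference was -0.318, against -0.115 over all genes tested. Of all genes, 10.7% were called higher and 11.5% lower there, so the counts below are not read as a result about these partners. Of 11 tested coreceptor and tetraspanin genes, 2 were called higher in MZ cells in each genotype (Cd81 and Itgb1) and 1 lower (Cd55, also on the follicular list). Cd81, a tetraspanin, differed by 0.92 ± 0.18 and the integrin chain Itgb1 by 1.35 ± 0.15 in wild-type cells (limma adjusted p = 0.00804 and 3.92e-04). Of 14 tested pan-B cell genes, 0 were called higher and 1, 2 and 2 lower, among them Fcmr, the IgM Fc receptor, at -1.21 ± 0.17 (limma adjusted p = 0.00111). In the comparisons of genotypes within a cell type, 0 genes of these 5 lists were called by limma, and 0 to 3 genes of a list had an unadjusted p under 0.05.

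Marker lists of other cell types the sort could hold ranged from near the minimum to well above it. T cell markers averaged 2.57 to 2.60 on FO and 2.48 to 2.58 on MZ arrays, with 8 of 10 within 0.5 of the minimum throughout. Dendritic cell markers averaged 2.59 to 3.17 and platelet markers 2.23 to 2.36 over all arrays. Neutrophil markers averaged 4.16 to 5.71 on the 4 arrays with high S100a8 and 2.27 to 2.29 elsewhere. Erythroid markers averaged 3.91 to 4.44 on FO and 3.50 to 4.30 on MZ arrays, and plasma cell markers 5.65 to 6.42 and 6.01 to 6.93. Of 10 measured targets of the depletion antibodies, 5 were within 0.5 of the minimum, but mRNA of Spn, which encodes CD43, stood at 7.48 to 8.02 on FO and 3.84 to 6.30 on MZ arrays. Sdc1, which encodes CD138, stood at 6.38 to 7.99 on FO and 2.50 to 4.20 on MZ arrays. Adgre1 reached 6.41 on FO and Fas, which encodes CD95, 7.15 on MZ arrays. Immediate early genes, which dissociation and sorting can induce, averaged 9.20 to 11.92 on FO and 7.98 to 11.65 on MZ arrays. Within them Atf3 stood at 8.57 to 12.80 on the 4 arrays with high S100a8 and at 2.69 to 6.43 on the others. The list mean did not divide the arrays fully in this way. It was 11.44 to 11.87 on those 4 arrays and 7.98 to 11.92 on the others, highest on FO wild-type replicate 2.

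**Figure D4:**
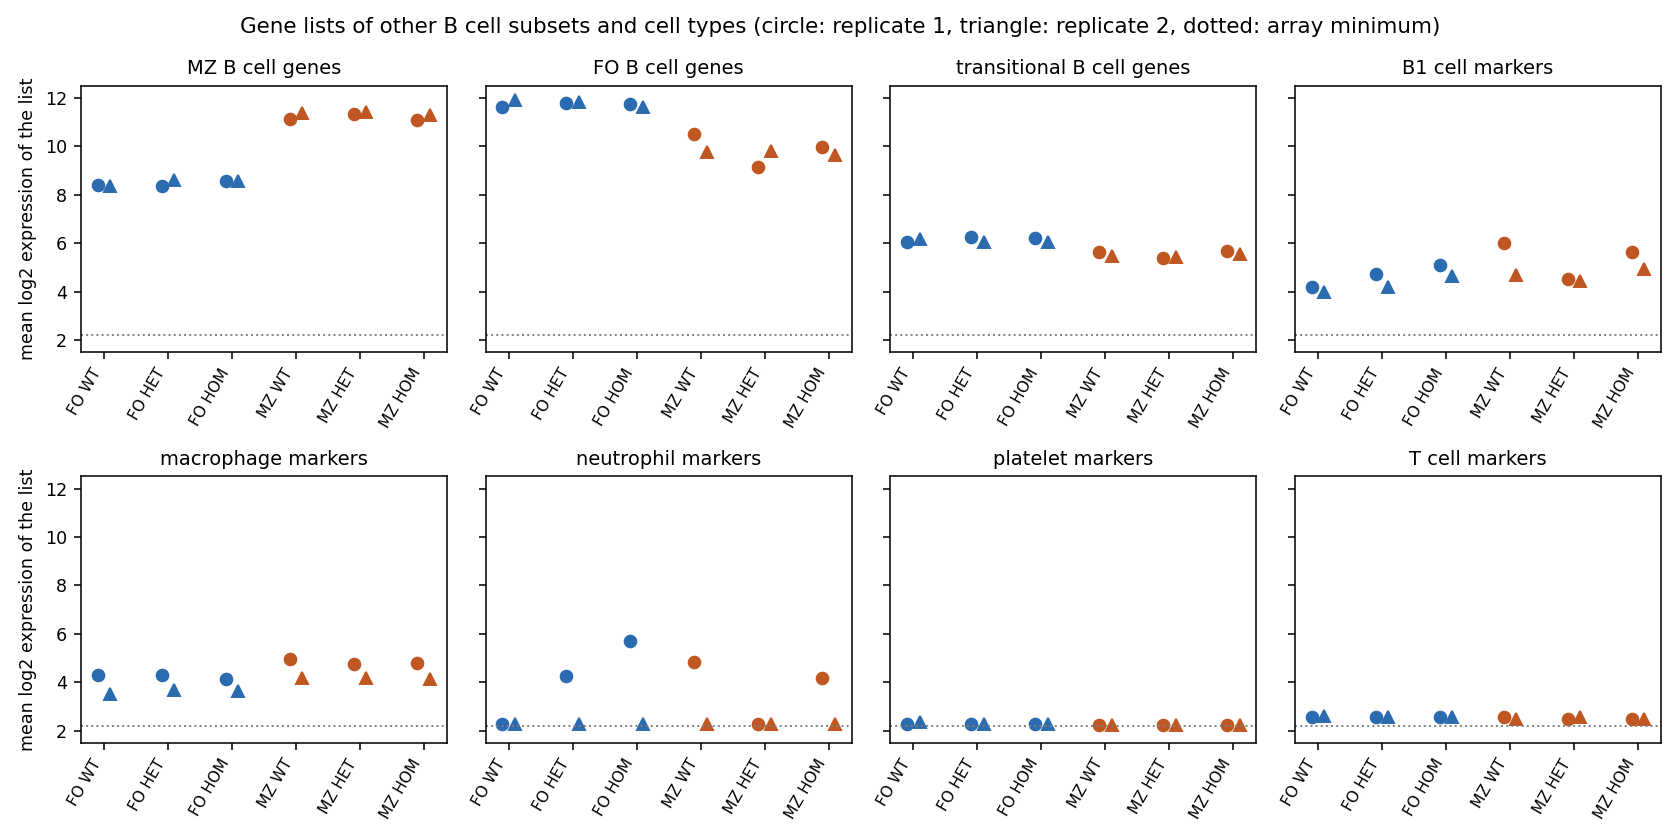
Mean log2 expression of 8 marker lists on the 12 arrays by cell type and genotype (circles replicate 1, triangles replicate 2; dotted line the lowest value of the FO arrays). MZ and FO gene lists divide the cell types, B1 markers run from 4.01 to 5.09 on FO arrays, and neutrophil markers reach 4.16 to 5.71 on 4 arrays while platelet and T cell markers stay close to the dotted line.

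Genes with the pattern most like 4 of the members were found over the 12 arrays by the root mean square (RMS) log2 difference after each gene's mean was subtracted. Nearest to Cr2 were Lyrm1, Pdcd2l and Plbd1 (RMS 0.237, 0.245 and 0.286). Nearest to Fcer2a were Dpm3, Slc2a6 and Mapk11 (0.258, 0.327 and 0.331). Cd9 was followed most closely by Ptpn14, Ldlrad3 and P4htm (0.210, 0.237 and 0.243). Closest to Cd1d1 were Mfhas1, 1700048O20Rik and Tmtc4 (0.227, 0.304 and 0.338). The RMS scales with a gene's own range, and no shared function is implied.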

How the data were processed

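Levels of mRNA were measured on 12 Affymetrix arrays of sorted B cells. Per probe set, the authors deposited log2 values from GCRMA, as named in the submitters' processing notes without a version. TRIZOL extraction and 3′ in vitro transcription labelling are given in the labels' protocols. GCRMA collects low signals at a shared minimum, and that minimum differed between FO and MZ arrays.

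Of 45101 probe sets, 34945 had 1 gene symbol in the platform annotation, 932 several and 9160 none listed, besides 64 controls. Gene numbers of 34741 matched a RefSeq gene table, and 0 symbols changed. Of several probe sets of a gene, the one with the highest mean was used. Means of the 6 groups were fitted with limma 3.58.1 (lmFit, eBayes) in R 4.3.3 over all arrays, with 6 residual degrees of freedom and two-sided p-values adjusted by Benjamini-Hochberg over 9306 genes. The number of arrays limits the precision. Probe sets other than the representative are given as values.

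The members and the gene lists were chosen with earlier results of these data known. All members are named; of each other list, up to 4 genes with the smallest limma p in MZ against FO wild-type cells, or, for other cell types, with the highest level on any array; and for Cr2, Fcer2a, Cd9 and Cd1d1 the 3 nearest genes. B1, list-wide and Bcl6 values given beside these, and Rag1, Rag2, Dntt, Vpreb1, C1qc, Marco, Cd163, Itgam and Cd5, were named after their values were seen. Alternatives were no filter, the mean of all probe sets, a shift to one median, quantile normalization, only the compared arrays, eBayes with trend and robust, array weights, a replicate block and each array left out.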

Additional observations from a re-analysis of the deposited data

Results flagged for a closer look

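For 2 members every array moved up with deletion in FO cells and down in MZ cells. How many of all genes moved in this way was not counted, so the count sets no member apart. Arrays of homozygous and wild-type cells did not overlap for 33.9% of all genes in FO and 31.2% in MZ cells. The Cd36 change in homozygous against wild-type cells was 1.25 in FO and -0.38 in MZ cells, and the MZ change minus the FO change was -1.63 (limma adjusted p of the interaction = 0.602). For heterozygous against wild-type cells the Cd36 changes were 1.01 and -0.40, and their difference of -1.41 was not tested. Cd9 changed by 0.59 in FO and -0.14 in MZ cells with homozygous deletion, and the difference of -0.73 had a limma adjusted p of 0.975 for the interaction. Without FO homozygous replicate 1, an array with high S100a8, the Cd9 change in FO cells was 0.15 and the difference -0.29.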

How the results depend on the processing

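The number of members called was within 1.5 times the reported one under all alternatives except 2. With eBayes trend and robust options, 1 member was called in homozygous against wild-type FO cells, Cd24a at -0.62 (limma adjusted p = 0.0486). With the 4 arrays with high S100a8 left out, fewer members were called in MZ against FO homozygous cells, in a fit with 1 array in 4 groups and few residual degrees of freedom. With each array left out in turn, MZ against FO counts ran from 5 to 7 (wild-type), 6 to 7 (heterozygous) and 7 to 8 (homozygous), and were 0 in the 5 comparisons that involve genotype. With the replicate number as a block the counts were 7, 7 and 8, and 0 in those 5. Correlations of deviations between same-numbered arrays of 2 groups ran from -0.26 to 0.77, below 0 for several pairs of groups, so numbers were not taken as pairs. The 6 pairs among FO heterozygous, FO homozygous, MZ wild-type and MZ homozygous, whose replicate 1 arrays are the 4 with high S100a8, ran from 0.45 to 0.77. With the mean of all probe sets, Ptprc in heterozygous MZ against FO cells was 0.0442 in place of -0.33, uncalled in both. That setting gave no value for Cd93, which fell below the filter. Of 675 alternative values, over those members and comparisons with an adjusted or unadjusted p under 0.05, 643 kept their direction and side of the threshold, 23 lost and 8 gained the call, and 1 reversed. Outside these, Ptprc in MZ against FO cells passed the threshold under 1 alternative each in wild-type and homozygous cells (limma adjusted p = 0.0337 and 0.0193). Genes called in MZ against FO wild-type cells numbered 2066 as reported, 604 with only the compared arrays, 1013 without the 4 arrays, 1307 without FO wild-type replicate 2, 1320 with array weights, and 8090 with no filter, which adds genes whose minimum differs by cell type with no spread. In homozygous against wild-type FO cells the 40 genes became 0 with only the compared arrays, 5 with only the 6 FO arrays, 17 with no filter and 1 without the 4 arrays.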
